A study of Mus musculus with 8 samples.

Results

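The DNA break signalling and repair genes described here were 41 mouse genes, out of 56691 in the deposited table, that sense DNA breaks, signal them to the cell cycle or repair them. They were listed by function, in a list drawn up with earlier results of these data known, and all 41 were found in the table by their Ensembl identifiers. They comprised 3 genes of the MRN sensor complex, 5 chromatin mediators, 2 activators of ATM, 4 checkpoint genes, 8 genes of homologous recombination, 6 of end joining, 11 of single-strand break and base excision repair and 2 of the Fanconi anaemia pathway. Their RNA was measured by bulk sequencing of the cerebellum in 4 *Atm*-WT mice (labelled Control, genotype ATM +/+) and 4 *Atm*-KO mice (genotype ATM -/-). The mice came from crosses of heterozygotes of the strain B6;129S4-*Atm*tm1Bal/J, the *Atm*-WT mice were littermates, and all were 6 months old. The labels name no treatment for either genotype. The mutation is carried in the germline, so every cell of an *Atm*-KO mouse lacks the normal allele, and the samples hold whole tissue in which fewer cells of a type and less RNA per cell cannot be told apart. The label of *Atm*-KO mouse 7F carries the letter F and those of the other 7 mice the letter M. *Xist*, an RNA of female cells, had 70528 counts in mouse 7F and 0 to 14 in the other 7 mice. Mouse 7F was thus female and the others male, so sex was not balanced between the genotypes.

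ATM is a kinase that the MRN complex brings to DNA double-strand breaks. It phosphorylates the histone variant H2AX around the break, and MDC1, RNF8, RNF168 and 53BP1 then assemble on that chromatin, while checkpoint kinases stop the cell cycle. Breaks are rejoined by end joining in any cell cycle phase or copied from the sister chromatid by homologous recombination in dividing cells, and nicks and damaged bases are mended by the PARP, XRCC1 and DNA polymerase beta pathway. Human mutations in *ATM*, *MRE11*, *APTX*, *TDP1* and *XRCC1* cause ataxias with loss of cerebellar neurons. Much of their regulation acts on the protein, by phosphorylation and ubiquitination, whereas RNA was measured here.

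The libraries held between 65967130 and 88030300 counts, and the lowest count of any of these genes in any library was 43. Levels are given in CPM (counts per 1000000 counts of the library, scaled with TMM factors), and differences as log2 fold changes of *Atm*-KO relative to *Atm*-WT fitted by the quasi-likelihood method of edgeR, with p-values adjusted (Benjamini-Hochberg) over 22423 genes tested. Marker genes of granule cells and Purkinje cells, the neurons that define this tissue, were all above 0 in every library, with summed levels of 6667 to 7821 and 8993 to 10980 CPM in *Atm*-WT mice and of 6942 to 9300 and 8884 to 10480 CPM in *Atm*-KO mice. *Atm*-KO mice 1M and 12M and *Atm*-WT mouse 32M stood apart in RNAs that stay in the nucleus, as given below. The smallest p that an exact permutation test over these mice can give is 0.0286.

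The targeted gene came first. *Atm* (9:53348097-53448236, GRCm39, minus strand) was measured at 67.6, 80.0, 79.4 and 59.0 CPM in *Atm*-WT mice 2M, 7M, 13M and 32M and at 51.1, 44.3, 41.1 and 44.9 CPM in *Atm*-KO mice 1M, 7F, 11M and 12M. The lowest *Atm*-WT mouse, 32M, was above the highest *Atm*-KO mouse, 1M. The log2 fold change was −0.66 (SE 0.10), with an adjusted p of 0.0775 by edgeR and 2.01e-05 by DESeq2. The counts cover the whole gene, so they do not show which part of the transcript remained.

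With edgeR, 0 of the 41 genes passed an adjusted p under 0.05, a threshold that 0.0178% of all genes tested passed. Of the 41, 12 had an unadjusted p under 0.05 (29.3%, against 20.2% of all genes and 18.7% of protein-coding genes). DESeq2 called 4 of them at an adjusted p under 0.05, *H2ax* (0.00173), *Rnf8* (0.00466), *Polb* (0.00643) and *Parp2* (0.0457), beside 7.49% of the genes it tested. limma voom called 0, beside 0.0134% of all genes. At an adjusted p under 0.1, which 1.9% of all genes passed, edgeR listed *H2ax* (0.0931), *Polb* (0.0942) and *Rnf8* (0.0958). Of the 12 genes with an unadjusted p under 0.05, 10 were higher in *Atm*-KO mice, which is 24.4% of the genes against 11.7% of all genes tested and 7.0% of protein-coding genes. The other 2, *H2ax* and *Atmin*, were lower, which is 4.88% of the genes against 8.48% of all genes and 11.7% of protein-coding genes. The 41 genes are all protein-coding.

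Differences were small in size. The log2 fold changes ran from −0.46 for *H2ax* to 0.54 for *Rnf8*, with a median of 0.05 beside −0.02 for all genes tested and −0.06 for protein-coding genes, and 24 (58.5%) were above 0, against 46.9% of all genes tested and 36.2% of protein-coding genes. The 95% interval lay within a 2-fold change for 39 of the 41 genes and within a 1.41-fold change for 22. Taken as a sum, the 41 genes had 854.5 to 899.8 CPM in *Atm*-WT and 896.8 to 904.7 CPM in *Atm*-KO mice. The genotypes did not overlap for 5 genes, *Rnf8*, *Polb* and *Parp2* on the higher side (7.32%, against 6.47% of all genes) and *H2ax* and *Atmin* on the lower side (4.88%, against 5.12%). Among protein-coding genes the shares were 4.4% and 6.98%.

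**Figure D1:**
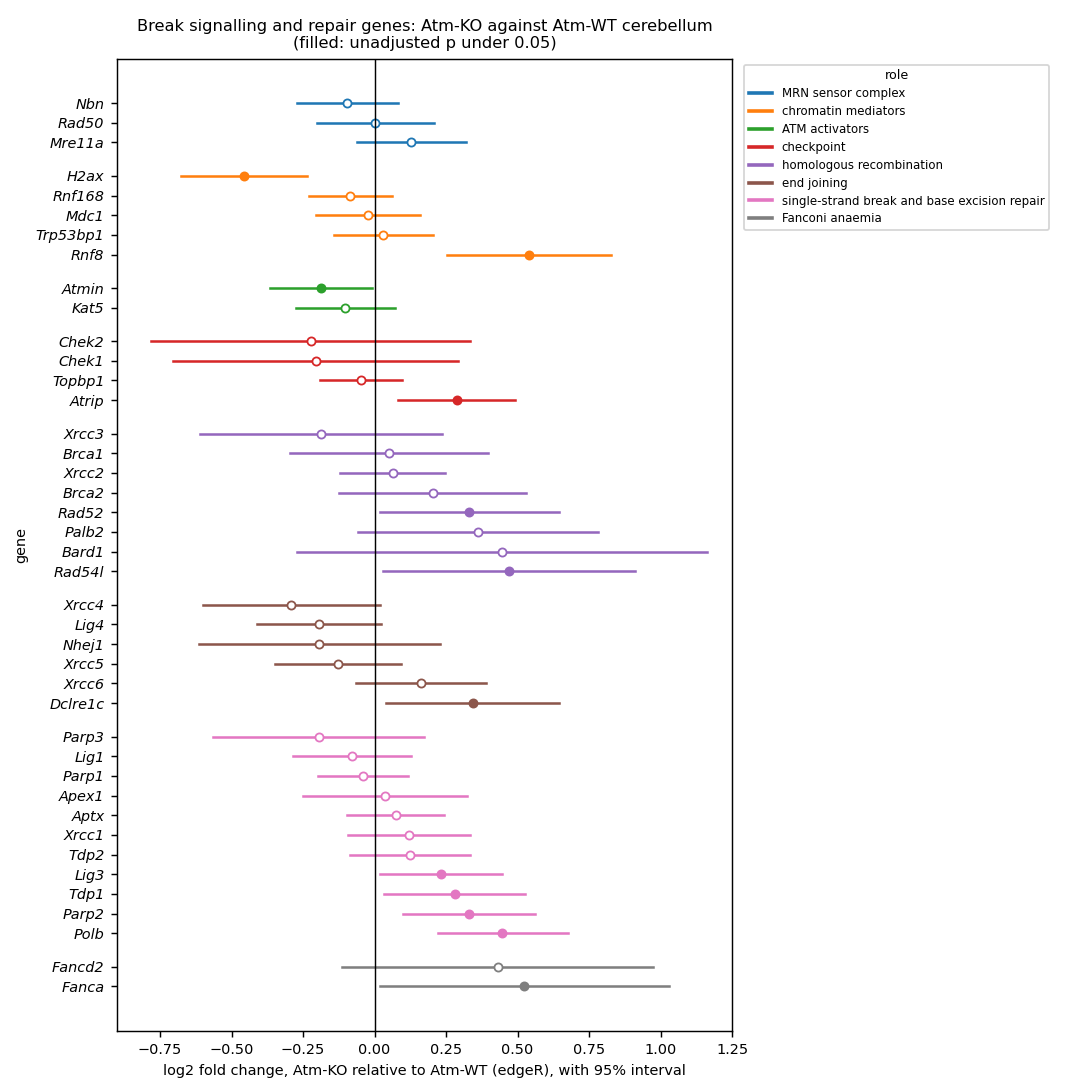
Log2 fold change of *Atm*-KO relative to *Atm*-WT cerebellum (x axis, edgeR) for each of the 41 genes (y axis), coloured by role, with 95% intervals as lines and filled points for an unadjusted p under 0.05. *H2ax* at −0.46 and *Rnf8* at 0.54 are the ends of the range, and most intervals cross 0.

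The count of 10 higher genes varied with the mice kept. Among these 10 genes the highest *Atm*-KO mouse was 12M in 7 and 1M in 3, the lowest *Atm*-WT mouse was 32M in 7, and mice 1M and 12M were the highest 2 *Atm*-KO mice in 8, against 15 of all 41 genes. Without *Atm*-WT mouse 32M, 4 genes were higher at an unadjusted p under 0.05 (9.76%, against 8.65% of all genes). Without *Atm*-KO mouse 1M there were also 4 (9.76%, against 7.9%), and without mouse 12M there were 6 (14.6%, against 8.22%). With all 3 of these mice left out, a choice made after seeing the data, the count was 3 (7.32%, against 4.39%). The log2 fold changes of the 10 genes then ran from −0.004 for *Rad52* to 0.28 for *Rnf8*, against 0.23 to 0.54 with all mice. The 3 mice are extremes of these same genes, so smaller values without them follow in part from the choice. With 1 surrogate variable in the fit the count was 3 (7.32%, against 5.78%). Over protein-coding genes these shares were 5.34%, 5.04%, 5.06%, 3.65% and 4.55%, in the same order, each below that of the repair genes. The share of all genes was also lower in each of these fits than the 11.7% given above.

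The same mice stood apart in RNAs that are kept in the nucleus, such as *Malat1*, *Neat1* and *Meg3*. Of 9 long noncoding RNAs tested from a list drawn up as nuclear, 8 were above 0 and 7 had an unadjusted p under 0.05. *Gas5* was below 0 (−0.16), and whether it is kept in the nucleus was not tested. *Miat* was at 4.15 CPM in mouse 12M and at 20.2 to 32.5 CPM in the other *Atm*-KO mice. The summed level of the 9 RNAs was 4874 to 9677 CPM in *Atm*-WT and 10210 to 15880 CPM in *Atm*-KO mice. The median log2 ratio of the 9 RNAs to the *Atm*-WT mean was lowest in *Atm*-WT mouse 32M (−0.36) and highest in *Atm*-KO mice 1M (0.98) and 12M (0.80), with 0.46 in mouse 7F and 0.60 in mouse 11M. Microglia markers lay the other way. All 9 were below 0 in the fit, 6 of them at an unadjusted p under 0.05, and their summed level was 146.0 to 197.9 CPM in *Atm*-WT and 112.4 to 148.0 CPM in *Atm*-KO mice. All 7 choroid plexus markers were below 0 (795 to 1588 and 433 to 1233 CPM), as were 8 of 9 oligodendrocyte markers (3300 to 4334 and 1998 to 3414 CPM) and all 9 markers of astrocytes and Bergmann glia (5168 to 5944 and 4584 to 5374 CPM), with 4 of 8 endothelial markers below 0 (244.7 to 280.4 and 210.8 to 274.1 CPM). Of the neuron markers, 9 of 10 Purkinje cell markers were below 0 (median log2 fold change −0.12), 1 of them at an unadjusted p under 0.05, and 7 of 11 granule cell markers were above 0 (median 0.04). No marker of these lists was at 0 in any library. The part of nuclear RNA and of glial cells in the values of the repair genes was not tested.

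**Figure D2:**
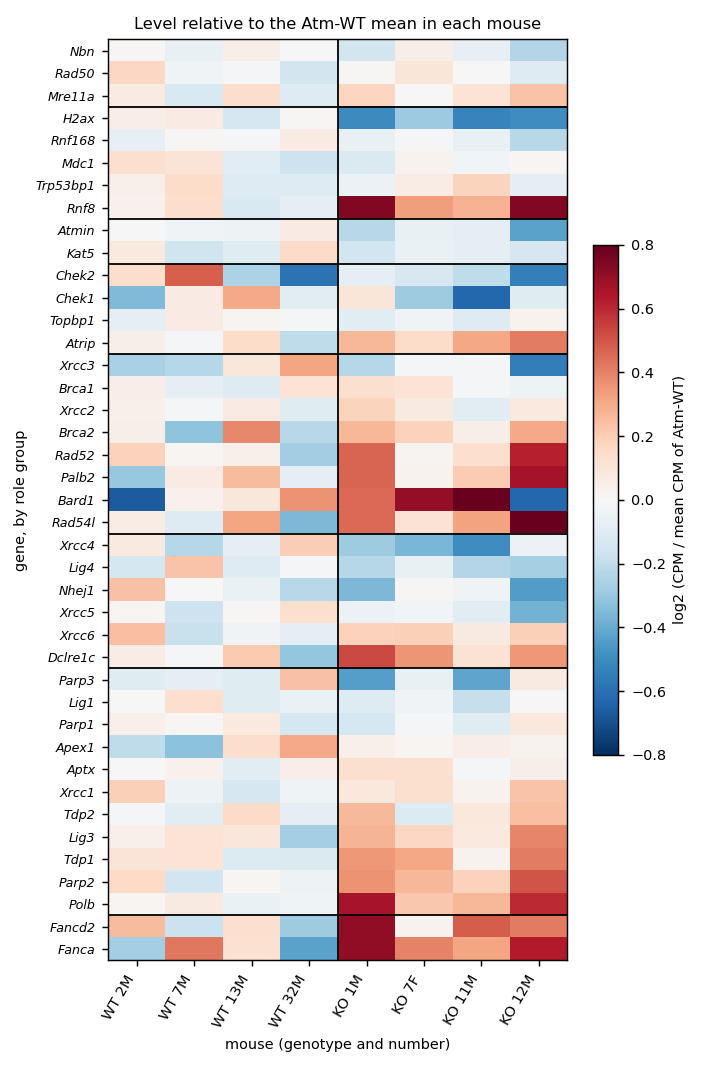
Level of the 41 genes (rows, by role group, ordered by fold change) in each mouse (columns), as log2 of CPM over the *Atm*-WT mean, with red for higher and blue for lower and the colour scale ending at 0.8 on either side. The red cells of *Rnf8*, *Polb*, *Rad52*, *Rad54l*, *Palb2* and *Fanca* are deepest in *Atm*-KO mice 1M and 12M.

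The MRN complex, which tethers broken ends and recruits ATM, was measured at nearly equal levels. *Mre11a*, its nuclease, lies 38.6 Mb from *Atm* on chromosome 9 and had 23.8, 21.0, 25.1 and 21.1 CPM in *Atm*-WT and 25.6, 22.7, 24.6 and 26.7 CPM in *Atm*-KO mice (log2 fold change 0.13, SE 0.09). *Rad50*, the ATPase that bridges the ends, had means of 14.8 and 14.8 CPM (log2 fold change 0.003, 95% interval −0.20 to 0.21). *Nbn*, which binds ATM itself, had 23.0 and 21.5 CPM (log2 fold change −0.10, 95% interval −0.27 to 0.08).

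Among the mediators on chromatin, *H2ax* and *Rnf8* lay at opposite ends of the range and the other 3 near 0. *H2ax* (9:44245991-44247374, GRCm39, plus strand), the histone variant whose phosphorylated form marks breaks, had 13.4, 13.5, 11.8 and 13.1 CPM in *Atm*-WT mice 2M, 7M, 13M and 32M. In *Atm*-KO mice 1M, 7F, 11M and 12M it had 9.09, 10.6, 8.92 and 9.18 CPM. All 4 *Atm*-KO mice were below the lowest *Atm*-WT mouse, and mouse 7F, the mouse with the letter F, was the highest of them. The log2 fold change was −0.46 (SE 0.10), with an edgeR p of 0.000773 before adjustment. It stayed between −0.497 and −0.405 under every alternative run, while its adjusted p ranged from 0.00173 to 0.447.

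*H2ax* and *Atm* share chromosome 9 and are 9.10 Mb apart. The strain name gives a mixed B6 and 129S4 origin, so *Atm*-KO mice can carry sequence from the targeted chromosome around *Atm*, and its effect on *H2ax* and the loss of ATM cannot be told apart in these mice. Of the 259 genes tested within 10 Mb of *Atm*, 29.3% had an unadjusted p under 0.05 (31 higher, 45 lower), against 20.2% of all genes. The other 5 members on chromosome 9, *Chek1*, *Mre11a*, *Topbp1*, *Parp3* and *Atrip*, lie outside that window.

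*Rnf8* (17:29833537-29863965, GRCm39, plus strand), the ubiquitin ligase that MDC1 brings to breaks, had 10.1, 10.9, 9.07 and 9.39 CPM in *Atm*-WT and 16.5, 12.4, 11.98 and 16.5 CPM in *Atm*-KO mice. The lowest *Atm*-KO mouse, 11M, was above the highest *Atm*-WT mouse, 7M, and mice 1M and 12M were well above the other 2. The difference on the log2 scale was 0.54 (SE 0.13), with an edgeR p of 0.00151 before adjustment. It ranged from 0.28 to 0.63 over the alternatives run, with adjusted p from 0.00466 to 0.589. *Gm28043*, an annotated gene on the same strand that covers 9.93% of the exon length of *Rnf8*, had 1.89, 2.31, 1.48 and 1.06 CPM in *Atm*-WT and 4.09, 2.63, 3.47 and 4.66 CPM in *Atm*-KO mice, and how reads in the shared exons were assigned is not stated.

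For *Rnf8* and *Parp2*, which DESeq2 called, the RefSeq table of promoters held an entry, and the 250 bases before the annotated start are shown so that the sequence before 2 genes with higher RNA can be read. Both are on the plus strand of GRCm38.p6, *Rnf8* at chr17:29614539-29614788 and *Parp2* at chr14:50807666-50807915, and capitals mark matches on either strand to 3 short motifs, the box with the letters CCAAT, the GC box with the letters GGGCGG and the octamer ATTTGCAT, which do not overlap in these windows.
Rnf8: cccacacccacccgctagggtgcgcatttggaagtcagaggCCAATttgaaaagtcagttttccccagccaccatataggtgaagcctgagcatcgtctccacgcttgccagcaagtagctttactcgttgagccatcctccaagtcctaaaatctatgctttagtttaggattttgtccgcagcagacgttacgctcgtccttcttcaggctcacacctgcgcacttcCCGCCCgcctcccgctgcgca
Parp2: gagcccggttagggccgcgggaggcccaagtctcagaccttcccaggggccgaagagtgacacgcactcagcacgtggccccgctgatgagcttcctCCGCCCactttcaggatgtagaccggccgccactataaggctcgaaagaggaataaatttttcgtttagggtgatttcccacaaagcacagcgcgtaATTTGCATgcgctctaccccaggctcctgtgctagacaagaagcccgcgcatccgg
The *Rnf8* sequence holds CCAAT at position -209 from the start and the reverse complement of the GC box at -21. The *Parp2* sequence holds the reverse complement of the GC box at -153 and the octamer at -56. *Rpph1* and *Ccnb1ip1*, on the opposite strand, overlap 6.37% and 7.06% of the exon length of *Parp2*, so it is not shown which gene these motifs serve. The table held 40 promoters of 34 of the 41 genes, of which 18 (45.0%) held CCAAT, 25 (62.5%) the GC box, 1 (2.5%) the octamer and 2 (5.0%) the cAMP response element TGACGTCA. Of 32851 promoters of the same length, 33.8% held CCAAT, 32.7% the GC box, 1.6% the octamer and 1.55% the cAMP response element. These are matches of letters and not shown to be bound.

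The other mediators differed little. *Mdc1*, the adaptor that reads phosphorylated H2AX, had means of 28.4 and 28.0 CPM (log2 fold change −0.02, SE 0.08), and its sign turned under library size scaling (0.03) and cyclic loess (0.02). *Trp53bp1*, which encodes 53BP1 and holds back end resection, had 165.1 ± 13.9 and 168.6 ± 13.7 CPM (SD, n = 4 mice per genotype), a log2 fold change of 0.03 (SE 0.08). *Tubgcp4* overlaps 17.9% of its exon length on the opposite strand and had a log2 fold change of 0.24 (SE 0.07). *Rnf168*, the ligase that acts after RNF8 on histone H2A, had 49.3 and 46.5 CPM (log2 fold change −0.09, SE 0.07).

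**Figure D3:**
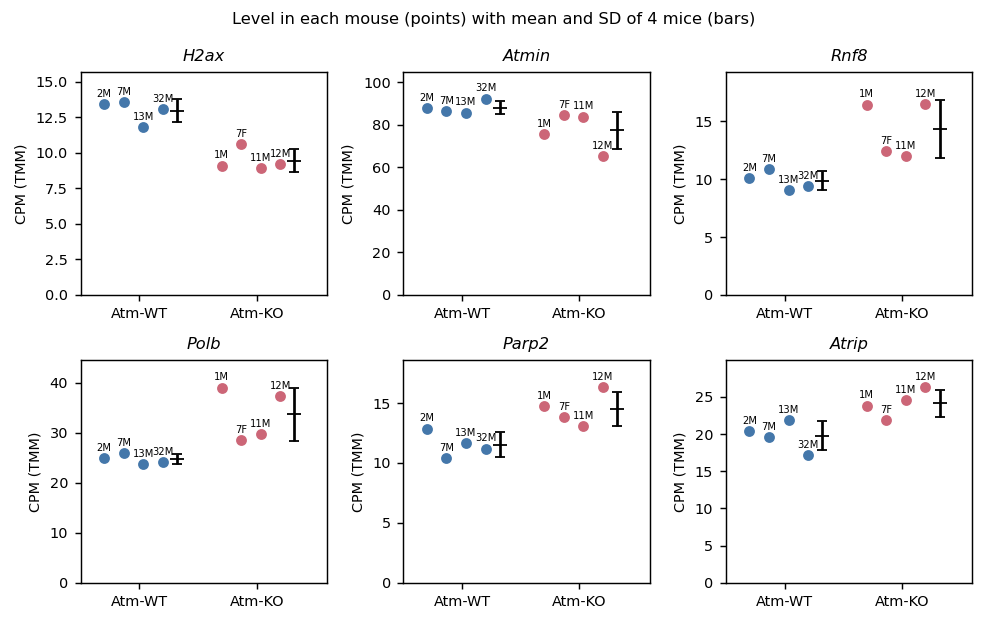
Level in CPM (y axis, from 0) of *H2ax*, *Atmin*, *Rnf8*, *Polb*, *Parp2* and *Atrip* in each mouse (points, labelled with the mouse number), with the mean and SD of 4 mice per genotype as bars. The genotypes do not overlap for the first 5 genes, and mice 1M and 12M are the highest for *Rnf8* and *Polb*.

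Of the 2 activators of ATM, *Atmin* had an unadjusted p under 0.05 and *Kat5* did not. *Atmin* (8:117670127-117691322, GRCm39, plus strand), which encodes an ATM-interacting protein that is also a transcription factor, had 87.8, 86.4, 85.7 and 92.3 CPM in *Atm*-WT and 75.6, 84.5, 83.8 and 65.4 CPM in *Atm*-KO mice. Mice 7F and 11M were just below the lowest *Atm*-WT mouse, and mice 12M and 1M were further down. The log2 fold change was −0.19 (SE 0.08), with an edgeR p of 0.0416 before and 0.229 after adjustment, and it was −0.04 at the least under the alternatives run. *Kat5*, the acetyltransferase TIP60 that acetylates ATM, had 42.8, 36.3, 37.9 and 45.2 CPM in *Atm*-WT and 36.5, 39.1, 38.7 and 36.9 CPM in *Atm*-KO mice, which overlap, with a log2 fold change of −0.10 (SE 0.08).

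Of the checkpoint genes, *Atrip* had an unadjusted p under 0.05 and the other 3 did not. *Chek1*, the effector kinase of ATR, is made mostly in dividing cells and had 1.27, 1.69, 1.99 and 1.52 CPM in *Atm*-WT and 1.73, 1.33, 1.04 and 1.51 CPM in *Atm*-KO mice (log2 fold change −0.21, 95% interval −0.70 to 0.29). *Chek2*, the effector kinase of ATM, had 1.51 ± 0.48 and 1.29 ± 0.18 CPM (SD), with a 95% interval of the log2 fold change from −0.78 to 0.34. *Topbp1*, an activator of ATR, had means of 32.9 and 31.8 CPM (log2 fold change −0.05, SE 0.07), and its sign turned under library size scaling. *Atrip*, the partner of ATR, had 20.4, 19.6, 21.9 and 17.2 CPM in *Atm*-WT and 23.8, 21.9, 24.5 and 26.3 CPM in *Atm*-KO mice. The lowest *Atm*-KO mouse, 7F, was just below the highest *Atm*-WT mouse, 13M. Its log2 fold change was 0.29 (SE 0.09), with an edgeR p of 0.0104 before and 0.141 after adjustment.

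In homologous recombination, 7 of 8 genes (87.5%, against 46.9% of all genes and 36.2% of protein-coding genes) were above 0 with a median log2 fold change of 0.27, and none passed an adjusted p under 0.05 by edgeR or DESeq2. *Rad54l*, the translocase that aids strand invasion, had 2.67 to 4.28 CPM in *Atm*-WT and 3.72 to 6.31 CPM in *Atm*-KO mice (log2 fold change 0.47, SE 0.20), with mouse 12M the highest, and *Lrrc41* at 47.3 and 43.0 CPM overlaps 22.2% of its exon length on the opposite strand. *Rad52*, which anneals single strands, had 11.7 to 16.1 and 14.3 to 21.8 CPM (0.33, SE 0.14). With mice 32M, 1M and 12M left out, a choice made after seeing the data, the log2 fold change was −0.004 for *Rad52*, 0.12 for *Rad54l*, 0.09 for *Palb2* and 0.05 for *Brca2*. Mouse 12M was the highest *Atm*-KO mouse in each of these genes, so lower values follow in part from that choice. *Palb2*, the link between BRCA1 and BRCA2, had means of 2.77 and 3.56 CPM (0.36, SE 0.19), and *Brca2*, the partner of PALB2, had 10.2 and 11.8 CPM (0.20, SE 0.15). *Bard1*, the partner of BRCA1, was at 0.62 to 1.26 and 0.64 to 1.78 CPM (0.45, SE 0.33), where the widest interval of the 41 genes was found (−0.27 to 1.16). *Brca1* had 2.34 and 2.42 CPM (0.05, SE 0.16). *Xrcc2* had 18.8 and 19.7 CPM (0.06, SE 0.08). *Xrcc3* was the exception below 0, with 3.27 and 2.88 CPM (−0.19, SE 0.19). With mice 32M, 1M and 12M left out *Xrcc3* was at 0.106 and *Xrcc2* at −0.037, and with a surrogate variable *Xrcc3* was at 0.079. In *Xrcc3*, 43.4% of its exon length overlaps *Klc1* on the opposite strand, a gene with means of 326 and 283 CPM.

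In end joining, which acts in neurons that no longer divide, 2 of 6 genes (33.3%) were above 0, near the 36.2% of protein-coding genes, with a median log2 fold change of −0.16. *Xrcc4*, the scaffold of DNA ligase IV, had 7.85, 6.37, 7.06 and 8.54 CPM in *Atm*-WT and 6.12, 5.78, 5.27 and 7.21 CPM in *Atm*-KO mice (log2 fold change −0.29, SE 0.14, with an edgeR p of 0.0634 before adjustment). *Lig4*, the ligase itself, had 17.2, 22.2, 17.7 and 18.9 CPM in *Atm*-WT and 16.2, 18.2, 16.1 and 15.8 CPM in *Atm*-KO mice (−0.20, SE 0.10, with an edgeR p of 0.0729 before adjustment). In both genes 1 *Atm*-KO mouse reached the *Atm*-WT range, 12M for *Xrcc4* and 7F for *Lig4*. Neither of the Ku subunits that bind free ends had an unadjusted p under 0.05. *Xrcc5* (Ku80) had 20.6, 18.2, 20.5 and 22.2 CPM in *Atm*-WT and 19.7, 20.1, 19.1 and 15.7 CPM in *Atm*-KO mice (−0.13, SE 0.10), and *Xrcc6* (Ku70) had means of 13.1 and 14.6 CPM (0.16, SE 0.10). *Nhej1* (XLF), the partner of XRCC4, had 2.09 and 1.83 CPM (−0.19, SE 0.19).

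*Dclre1c*, the Artemis nuclease that opens hairpin ends, was the gene of this group with an unadjusted p under 0.05. It had 7.71, 7.33, 8.56 and 5.95 CPM in *Atm*-WT and 10.7, 9.42, 8.01 and 9.40 CPM in *Atm*-KO mice, and mouse 11M lay within the *Atm*-WT range. *Dclre1c* had a log2 fold change of 0.34 (SE 0.14), with an edgeR p of 0.0293 before and 0.199 after adjustment. *Suv39h2* overlaps 46.7% of its exon length on the opposite strand and had a log2 fold change of −0.37 (SE 0.14).

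In single-strand break and base excision repair, 8 of 11 genes (72.7%, against the same shares) were above 0 with a median log2 fold change of 0.12. *Polb* (8:23117532-23143575, GRCm39, minus strand) encodes DNA polymerase beta, which fills the gap left by an excised base. It had 24.9, 25.9, 23.7 and 24.1 CPM in *Atm*-WT and 38.99, 28.6, 29.7 and 37.3 CPM in *Atm*-KO mice. The *Atm*-WT mice lay close together, and all *Atm*-KO mice were above them, 1M and 12M most. *Polb* had a log2 fold change of 0.45 (SE 0.10), with an edgeR p of 0.00112 before adjustment. It ranged from 0.23 to 0.54 over the alternatives run, with adjusted p from 0.00643 to 0.546.

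*Parp2* (14:51044948-51058759, GRCm39, plus strand), a poly(ADP-ribose) polymerase that signals nicks and whose promoter is printed beside that of *Rnf8*, had 12.9, 10.4, 11.6 and 11.2 CPM in *Atm*-WT and 14.8, 13.8, 13.1 and 16.3 CPM in *Atm*-KO mice. The lowest *Atm*-KO value, in mouse 11M, was just above the highest *Atm*-WT value, in mouse 2M. Its log2 fold change was 0.33 (SE 0.11), with an edgeR p of 0.00882 before and 0.135 after adjustment. The better known *Parp1* had 65.4 to 76.2 and 65.2 to 76.4 CPM, a log2 fold change of −0.04 (SE 0.07) whose sign turned under library size scaling and cyclic loess. *Parp3*, another ADP-ribosyltransferase, had 4.33 and 3.78 CPM (−0.20, SE 0.17).

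*Tdp1*, which removes trapped topoisomerase I from DNA ends, had 11.6, 11.6, 10.01 and 9.95 CPM in *Atm*-WT and 13.7, 13.4, 10.99 and 14.4 CPM in *Atm*-KO mice. Mouse 11M lay inside the *Atm*-WT range and the other 3 above it (log2 fold change 0.28, SE 0.11, with an edgeR p of 0.0289 before and 0.198 after adjustment). *Lig3*, the ligase of nuclear and mitochondrial repair, had 31.0 to 40.2 and 39.5 to 49.1 CPM (0.23, SE 0.10), with mouse 32M far below the other *Atm*-WT mice. Its log2 fold change was 0.04 with mice 32M, 1M and 12M left out, a choice made after seeing the data. The remaining genes of this group had log2 fold changes between −0.08 and 0.13 and intervals that crossed 0. They were *Tdp2*, which removes topoisomerase II (25.3 and 27.5 CPM), the scaffold *Xrcc1* (13.5 and 14.6 CPM), *Aptx*, which clears failed ligations (17.9 and 18.8 CPM), *Apex1*, the abasic site nuclease (13.6 and 14.0 CPM), and *Lig1*, the replication ligase (12.6 and 11.9 CPM). *Apex1* shares 53.8% of its exon length with *Pip4p1* on the opposite strand.

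The Fanconi anaemia genes, which act on crosslinks between DNA strands, were both above 0. *Fanca* had 0.97 to 1.75 CPM in *Atm*-WT and 1.63 to 2.13 CPM in *Atm*-KO mice (log2 fold change 0.52, SE 0.23, with an edgeR p of 0.0431 before adjustment). *Zfp276*, at 22.4 and 24.9 CPM, overlaps 28.5% of the exon length of *Fanca* on the opposite strand, and whether strand was used in counting is not stated. *Fancd2* had 0.58 to 0.84 and 0.72 to 1.16 CPM (0.43, SE 0.25). Over all genes tested, the median depended on the level. In the band from 0.478 to 2.39 CPM, which held 7 of the 41 genes, the median log2 fold change was 0.12 for all genes and 0.05 for the 7. In the next band, up to 14.0 CPM, it was −0.03 for all genes and 0.18 for 14 repair genes, and in the band up to 51.6 CPM it was −0.05 and 0.06 for 17 repair genes.

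**Figure D4:**
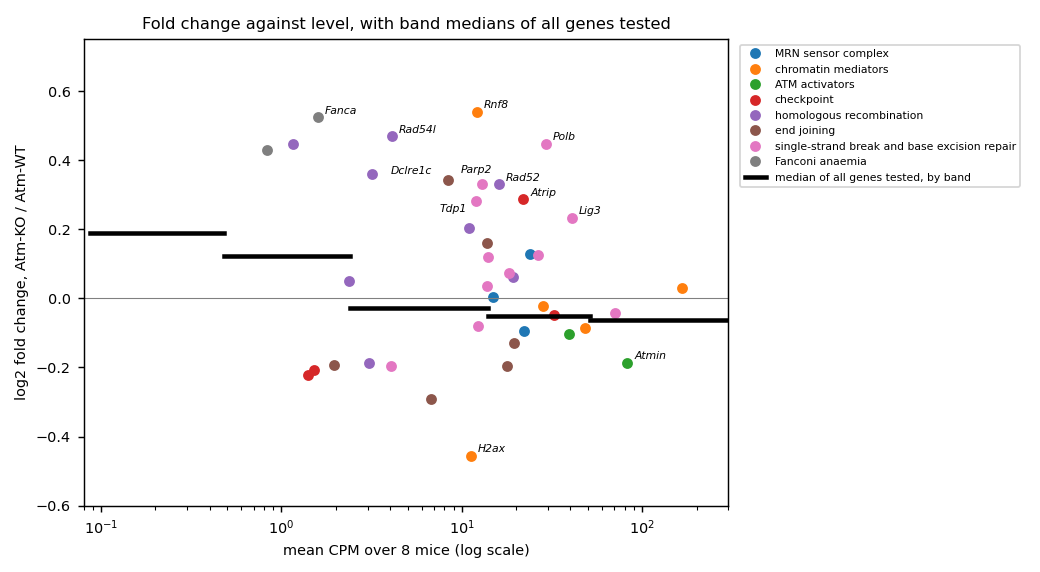
Log2 fold change (y axis) of the 41 genes (points, coloured by role, named where the unadjusted p is under 0.05) against mean CPM over 8 mice (x axis, log scale, ending at 300), with the median of all genes tested in each of 5 level bands as black bars. The bars step from 0.19 at the lowest levels to −0.06 at the highest.

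Levels were also compared between genes, as CPM per kilobase of the canonical transcript. In *Atm*-WT mice the order began with *Kat5* (18.8 ± 1.92, SD), *Parp1* (18.5 ± 1.20), *Polb* (18.3 ± 0.736) and *Trp53bp1* (17.2 ± 1.45), which did not differ beyond their spread. *Tdp2* (12.7 ± 0.995) and *Rnf168* (11.1 ± 0.416) followed. In *Atm*-KO mice *Polb* stood first at 24.9 ± 3.91 CPM per kilobase, ahead of *Parp1* at 18.0 ± 1.27. The place of *Polb* depended on the length used. The counts cover all annotated exons, and per kilobase of these (10623 bases against 1349 in the canonical transcript) *Polb* was at 2.32 and 3.16 CPM (*Atm*-WT and *Atm*-KO). That placed it at rank 19 and rank 14 of the 41 genes. *Trp53bp1* (11.5 and 11.7), *Kat5* (10.9 and 10.2) and *Parp1* (9.88 and 9.61) then stood first, in that order. The order by canonical length ended with genes of recombination, crosslink repair and the replication checkpoint. In *Atm*-WT mice these were *Brca1* (0.352 ± 0.0248), *Fanca* (0.201 ± 0.0541), *Chek1* (0.186 ± 0.0352), *Bard1* (0.174 ± 0.0471) and *Fancd2* (0.124 ± 0.0214), of which the last 4 did not differ beyond their spread from the next in that order. The summed level of 13 proliferation markers, most of it from *Mcm2*, *Mcm5* and *Mcm6*, was 35.2 to 40.5 CPM in *Atm*-WT and 35.2 to 39.3 CPM in *Atm*-KO mice.

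Other repair genes came from lists written by pathway. Of 98 tested, 0 passed an adjusted p under 0.05 with edgeR, 19 had an unadjusted p under 0.05 (17 higher, 17.3% against 11.7% of all genes and 7.0% of protein-coding genes, and 2 lower, 2.04% against 8.48% and 11.7%), and the median log2 fold change was 0.06. DESeq2 called 5 of the 97 it tested, among them *Neil1*, *Mus81* and *Mutyh*, beside 7.49% of all genes it tested. The base excision group had 12 of 16 genes above 0, 4 of them at an unadjusted p under 0.05, and the Fanconi group 10 of 13, also with 4. Recombination genes had 10 of 23 above 0 and other checkpoint genes 5 of 11, with 1 and 0 higher at an unadjusted p under 0.05. Resection and end-choice genes had 9 of 13, nucleotide excision repair genes 9 of 15 and mismatch repair genes 4 of 7 above 0, with 3, 3 and 2 higher at that p.

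*Neil1*, a glycosylase that removes oxidized bases, had 4.35, 3.95, 5.25 and 3.55 CPM in *Atm*-WT and 8.32, 6.07, 6.81 and 8.85 CPM in *Atm*-KO mice (log2 fold change 0.81, SE 0.17, adjusted p = 0.0931 by edgeR and 0.000427 by DESeq2). The genotypes did not overlap. It lies 3.60 Mb from *Atm*, so the limit given for *H2ax* holds for it too. *Mutyh*, which removes adenine opposite oxidized guanine, had means of 2.30 and 3.61 CPM (0.65, SE 0.21), and *Mus81*, a nuclease for branched DNA, had 22.4 and 31.3 CPM (0.48, SE 0.11, adjusted p = 0.0938 by edgeR). On the lower side, *Rpa1*, the large subunit of the protein that coats single strands, had 89.4, 92.5, 91.0 and 93.1 CPM in *Atm*-WT and 81.5, 81.2, 81.0 and 80.4 CPM in *Atm*-KO mice. Its spread was small in both genotypes (log2 fold change −0.18, SE 0.05, with an edgeR p of 0.00561 before and 0.12 after adjustment). *Babam2* of the BRCA1-A complex had 16.2 and 13.7 CPM (−0.24, SE 0.09), and *Faap24* of the Fanconi core had 2.64 and 2.07 CPM (−0.35, SE 0.17). With mice 32M, 1M and 12M left out, a choice made after seeing the data, 2 of the 98 other repair genes were higher at an unadjusted p under 0.05. That is 2.04%, against 4.39% of all genes and 3.65% of protein-coding genes, a gap that rests on few genes. The share was also 2.04% with 1 surrogate variable in the fit, against 5.78% of all genes and 4.55% of protein-coding genes.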

How the data were processed

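Frozen cerebella of 8 mice were sequenced through Novogene on an Illumina HiSeq platform. Read quality was checked with FastQC 0.11.9, STAR gave the alignment to GRCm39, and featureCounts with GENCODE Release 28 gave the raw counts per gene that the authors deposited without normalization, with a column for each mouse. Strand and pair settings were not given in the sources used here, and 67.3 to 73.3% of low counts were even, so a count may be a read or a pair, and overlapping genes, also on opposite strands, cannot be told apart. Of the 41 genes, 31 overlap exons of another gene, 11 of them over more than 10% of their exon length. These 11 are *Apex1*, *Atrip*, *Brca2*, *Dclre1c*, *Fanca*, *H2ax*, *Kat5*, *Lig3*, *Rad54l*, *Trp53bp1* and *Xrcc3*. Identifiers were matched to GENCODE vM39 on GRCm39 (98.8% found).

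Genes were kept by filterByExpr (22423), normalized by TMM and tested with glmQLFit and glmQLFTest of edgeR 4.0.16 in R 4.3.3, without covariates. The standard error (SE) is the absolute log2 fold change over the square root of F. Libraries at these depths gave interval half-widths from 0.14 to 0.72 (log2, median 0.23), and the steps were tested on simulated data. Single values were also compared by two-sided exact permutation tests. Alternatives were DESeq2 1.42.0, limma 3.58.1 (voom, also with cyclic loess), RLE factors, library size alone, no filter, at least 10 counts in every library, halved counts, a surrogate variable from sva 3.50.0 and each mouse left out. Mice share no labelled pairing, and p-values measure the spread between these mice.

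The genes and lists were chosen with earlier results of these data known. Values per mouse are given for *Atm* and, among the 41 genes, for those without overlap of genotypes, the 6 smallest p in each direction, *H2ax*, *Mre11a* and *Chek1*. Other repair genes are named where called at an adjusted p under 0.05 or among the 3 largest increases and decreases without overlap and with a mean of at least 1 CPM, by group means except for *Neil1* and *Rpa1*, whose values per mouse were added after they were seen. Of the 5 other repair genes that DESeq2 called, the 3 that this rule covers are named, and the other 2 are not reported here by name.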

Additional observations from a re-analysis of the deposited data

Results flagged for a closer look

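In 96 groups of 4 mice examined, the highest or lowest mouse stood far from the other 3 (Dixon's test at 95%) in 3 groups, where chance gives about 4.8 (1 in 20). *H2ax* was at 10.6 CPM in *Atm*-KO mouse 7F, the mouse with the letter F in its label, and at 8.92 to 9.18 CPM in the other *Atm*-KO mice. *Xrcc6* was at 13.7 CPM in *Atm*-KO mouse 11M and at 14.9 to 15.0 CPM in the others. *Parp3* was at 5.10 CPM in *Atm*-WT mouse 32M and at 4.05 to 4.12 CPM in the others.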

How the results depend on the processing

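No paired analysis was possible because the labels pair no mice. Of 864 log2 fold changes of 48 genes under 18 alternatives, 823 kept their direction and their side of an adjusted p of 0.05, 16 passed that threshold only under the alternative, and 25 in 12 genes changed sign. The cause was not tested.

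Repair genes called at an adjusted p numbered 0 in the edgeR fit, 4 with DESeq2, 2 without a filter on low counts (*Polb* and *Rnf8*, beside 1.62% of all genes) and 3 at an adjusted p under 0.1, a threshold chosen after seeing the data, and 0 with any mouse left out. Other repair genes gave 0, 5, 2 and 2, and 0 with any mouse left out. At an unadjusted p the 12 genes (29.3%, against 20.2% of all genes) became 4 with a surrogate variable. They became 5 with mice 32M, 1M and 12M left out together (chosen after seeing the data) and 5 to 14 with a mouse left out. Of all genes, 5.78% were higher and 4.35% lower with the surrogate variable. Without the 3 mice these shares were 4.39% and 3.9%, and with a mouse left out 7.9 to 13.8% and 5.67 to 8.63%. The 10 higher became 3, 3 and 4 to 12. The 2 lower became 1 with a surrogate variable, library size alone, at least 10 counts or halved counts, and 1 to 3 with a mouse left out. Genes without overlap, 5 with all mice, were 8 with the 3 mice left out (19.5%, against 25.8% of all genes) and 5 to 10 with 1 left out (12.2 to 24.4%, against 13.4 to 21.1% of all genes). The median log2 fold change of the 41 genes, 0.049, was 0.096 with library size alone (0.031 for all genes). It was 0.087 without *Atm*-WT mouse 32M (−0.007 for all genes) and 0.033 without *Atm*-KO mouse 1M (−0.017 for all genes).

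Of other repair genes, the 19 at an unadjusted p became 4 with a surrogate variable, 4 without the 3 mice and 11 to 21 with a mouse left out. The 17 higher became 2 (2.04%, against 5.78% of all genes), 2 (2.04%, against 4.39%) and 9 to 19. The 2 lower became 4 with DESeq2, 1 with library size alone and 1 to 4 with a mouse left out. Their median of 0.06 was 0.11 with library size alone and 0.009 without the 3 mice.

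Values after a sign change were small. They were *Mdc1* (0.027 with library size alone, 0.021 with cyclic loess, 0.003 with at least 10 counts and 0.002 with halved counts), *Topbp1* (0.002) and *Parp1* (0.009) with library size alone, and *Parp1* (0.003) and *Brca1* (−0.016) with cyclic loess. Without the 3 mice they were *Rad52* (−0.004), *Xrcc2* (−0.037), *Xrcc3* (0.106) and *Tdp2* (−0.035), and with a surrogate variable *Xrcc3* (0.079) and *Xrcc5* (0.016). With a mouse left out the ranges were −0.045 to 0.062 for *Rad50*, −0.076 to 0.02 for *Mdc1*, −0.007 to 0.079 for *Trp53bp1*, −0.086 to 0.004 for *Parp1* and −0.064 to 0.15 for *Apex1*.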
